A study of Arabidopsis thaliana with 17 samples.

Results

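The 3 endosperm parts of the young Arabidopsis thaliana seed were compared with its 2 seed coat parts, on 7 and 4 arrays of the 17 in the series. Each side was the mean of its group means of log2(intensity + 31), and genes were kept where all 3 endosperm group means lay above, or all lay below, both seed coat group means. Of 22746 probe sets tested, 7179 met that rule, 2708 with endosperm higher and 4471 with seed coat higher. The separation was read from the same values as the test, so it is a description and no result of its own.

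All groups were wild-type plants of the Ws-0 accession, 38 to 46 days old, with no treatment. Siliques were 1.1 to 1.4 cm long, and seeds were used only where the embryo was globular and 24 to 32 µm across. Compartments were cut out by laser from fixed paraffin sections of 5 or 7 µm, and 2 to 4 ng of RNA was amplified for each Affymetrix ATH1 array, which reads genes with sets of short probes. Micropylar endosperm, which surrounds the embryo, peripheral endosperm, chalazal seed coat and general seed coat had 2 arrays each, and chalazal endosperm, at the pole away from the embryo, had 3. The labels call arrays of a group biological replicates but do not tie captures to plants, and p-values therefore reflect no more than the scatter among these samples, which may be technical. Embryo proper, suspensor and whole seed, with 2 arrays each, stood outside the comparison.

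The endosperm is the product of the second fertilisation event, and at the globular stage it is largely a syncytium whose nuclei divide without walls between them before cellularisation starts around the embryo. It carries maternal and paternal genomes, takes in sugar that arrives through the mother and passes it on to the embryo. The seed coat grows from the integuments of the ovule and is wholly maternal. Its inner layer makes proanthocyanidins, the tannins that brown the seed, and its outer layers later fill with mucilage and thickened walls.

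The 2 sides differed in array quality. Median intensity ran from 97.4 to 130.8 over the endosperm arrays and from 148.7 to 179.2 over the seed coat arrays. The ratio of 3' to 5' signal for the GAPDH control, which rises where RNA is short, ran from 6.37 to 27.7 in endosperm and from 4.67 to 7.73 in seed coat. It exceeded 15 on micropylar endosperm 1 and on chalazal endosperm 1 and 2. Between 44.5% and 64.5% of probe sets lay above the array's background limit in endosperm and between 58.5% and 66.0% in seed coat, where the limit is the highest of 27 bacterial control probe sets. The part of these differences in the results was not tested. In captured tissue, fewer cells of a type and less RNA per cell cannot be told apart.

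On the side means, limma called 2676 probe sets higher in endosperm, which is 11.8% of those tested, and 4531 higher in seed coat, which is 19.9%. Among these, 1481 (6.51%) also had every endosperm group mean above both seed coat group means, and 3326 (14.6%) had every one below. These 4807 are called below, and counts for lists and families are to be read beside the shares of 6.51% and 14.6%. The stricter requirement that each of the 6 pairs of parts differ in the same direction left 132 probe sets (0.58%) higher in endosperm and 507 (2.23%) higher in seed coat, of which 75 and 266 name a single gene. Without the 3 arrays of high GAPDH ratio the called sets numbered 1533 and 3149, and the strict sets 95 and 451. Leaving out a single array moved the strict seed coat set to 332 without micropylar endosperm 2, 299 and 300 without chalazal seed coat 1 or 2, and 297 and 291 without general seed coat 1 or 2. The strict endosperm set fell to 78 without chalazal seed coat 2 and to 64 without general seed coat 2.

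The balance between the directions depended on how arrays were scaled. Of the called probe sets, 30.8% were higher in endosperm with the deposited scaling, 46.2% after quantile normalization and 58.5% after alignment of the 75th percentiles. For calls on side means alone the shares were 37.1%, 48.2% and 59.3%, and for the strict sets 20.7%, 29.4% and 37.8%. The median log2 difference over all probe sets was -0.06 with the deposited scaling and moved up by 0.199 and 0.377 under the alternatives, so list medians are read against that of all probe sets. At the edge of the separation, AT4G25740 lay just inside, with 840.6 in chalazal endosperm, the lowest endosperm group, and 879.6 in general seed coat, the highest of that side, as arithmetic means. AT3G21100 lay just outside, with 163.6 in peripheral endosperm and 140.4 in general seed coat. Order was decided on the log2 scale, where the lowest endosperm and the highest seed coat group mean of each gene were almost equal.

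TBL42, LCR24, SWEET8 and AT1G13680 had the largest differences on the endosperm side among genes whose arrays did not overlap. TBL42, of the TRICHOME BIREFRINGENCE-LIKE family, whose studied members acetylate wall polysaccharides, read 20720.5 and 12642 in micropylar, 2514 and 4279.6 in peripheral and 3574, 3163 and 2909 in chalazal endosperm, against 6.84 and 47.9 in chalazal and 6.74 and 119 in general seed coat. Every endosperm array exceeded every seed coat array by more than an order of magnitude, and micropylar endosperm was highest. The log2 difference was 6.44 ± 0.38 (SE), with a limma adjusted p of 9.13e-13, and the level was at least 57.8-fold higher, with 1 of 4 seed coat arrays above its background limit. SWEET8, a sugar transporter known for its part in pollen wall formation, read 17852 and 19240.1 in micropylar, 3065 and 7108 in peripheral and 6093, 5536 and 4850.1 in chalazal endosperm, against 123 and 197 in chalazal and 178 and 78.7 in general seed coat. The sides did not overlap, all 4 seed coat arrays lay above background, and the fold was 57.4 (log2 difference 5.54 ± 0.27, adjusted p 1.45e-13). LCR24, which encodes a small cysteine-rich peptide of the defensin-like class, read 143187 and 64062 in micropylar, 10029 and 14427 in peripheral and 1793, 1481 and 1086 in chalazal endosperm, against 64.5 and 55.3 in chalazal and 712 and 243 in general seed coat. Its endosperm levels fell from the micropylar over the peripheral to the chalazal part, and the lowest endosperm array still exceeded the highest seed coat array. LCR24 was at least 64.3-fold higher in endosperm (log2 difference 5.88 ± 0.30, adjusted p 1.79e-13, 2 of 4 seed coat arrays above background).

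The aspartic protease gene NANA, whose product acts in chloroplasts, was the most even of the named genes among the endosperm parts. NANA read 4289 and 4838 in micropylar, 4958 and 4875 in peripheral and 5018, 8895 and 4340.4 in chalazal endosperm, against 200.2 and 123 in chalazal and 290.3 and 203 in general seed coat. It was 25.9-fold higher in endosperm (log2 difference 4.49 ± 0.31, adjusted p 9.53e-12). KELP, a transcriptional coactivator, also varied little within endosperm and read 15940.1 and 9281 in micropylar, 9152 and 21004 in peripheral and 24639.9, 20894 and 16354 in chalazal endosperm, against 2648 and 2108 in chalazal and 1546 and 1308 in general seed coat, a 8.23-fold difference (adjusted p 1.69e-10). GAT1_2.1, a glutamine amidotransferase-like gene, read 3107 and 3200.5 in micropylar, 3719 and 6322 in peripheral and 1445, 1110.1 and 2030.4 in chalazal endosperm, against 119 and 11.7 in chalazal and 447 and 256 in general seed coat. Its arrays did not overlap between sides (log2 difference 4.06 ± 0.39, adjusted p 2.86e-09), and another probe set of the gene was called in the same direction but was not in the strict set.

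KELP and GAT1_2.1 were not named by size or margin and were chosen after their values were seen. Apart from PSAE-1, the other endosperm genes named by size or margin carry locus names alone in the annotation used. AT5G54220 read 104981 and 65793 in micropylar, 3528 and 8874 in peripheral and 11914, 7458 and 7458 in chalazal endosperm, against 517 and 174 in chalazal and 758 and 456 in general seed coat, and was thus highest in the micropylar part. AT2G23970 read 13457 and 15364 in micropylar, 6549 and 15524 in peripheral and 11984, 17247 and 11199 in chalazal endosperm, against 1175 and 517 in chalazal and 328 and 309.6 in general seed coat, with like levels in all 3 endosperm parts. Their log2 differences were 5.13 ± 0.28 and 4.55 ± 0.28. AT3G24510 reached 104297 ± 59975 (mean ± SD, n = 2) in micropylar endosperm against 499 ± 5.59 in chalazal and 4049.5 ± 3067 in general seed coat. AT1G04645, whose micropylar mean was 20412 ± 6251 and whose chalazal endosperm mean was 330.0 ± 106, was the one gene named by size or margin that was not in the strict sets. The remaining 9, AT1G13680, AT5G05250, AT2G02515, AT5G24316, AT4G32080, AT5G58810, AT1G55550, AT5G58830 and the photosystem gene PSAE-1 described below, had log2 differences between 4.28 and 5.53.

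**Figure D1:**
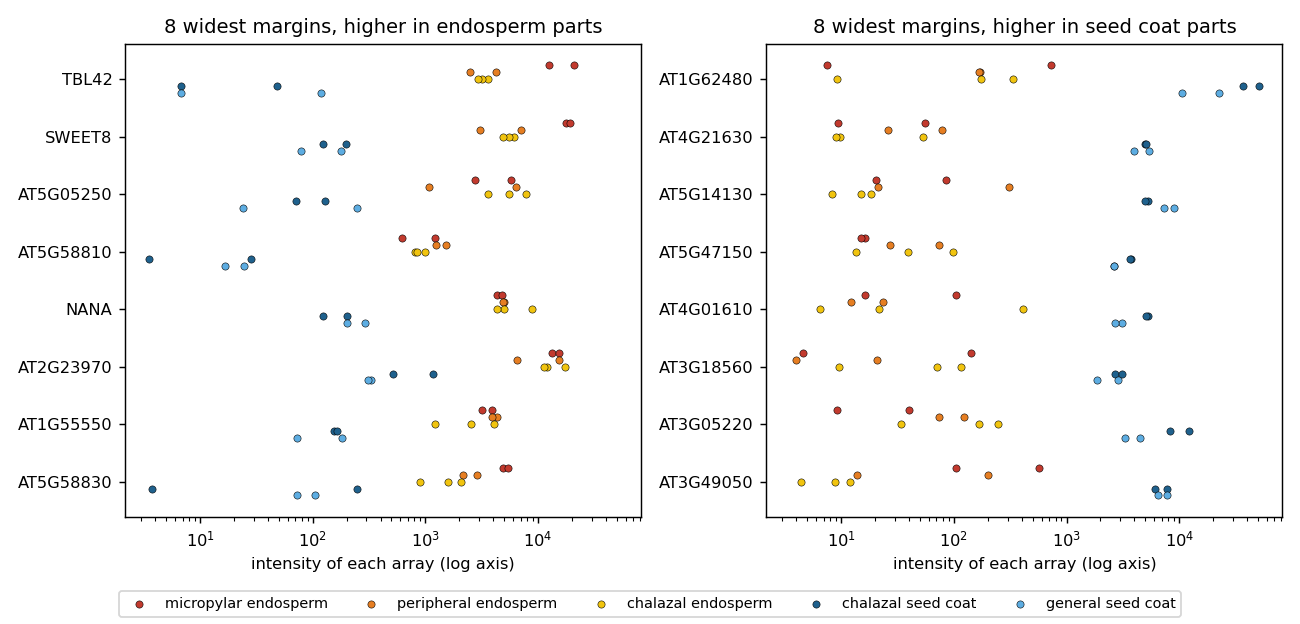
Intensity of each endosperm and seed coat array (log axis) for the 8 named genes per direction with the widest gap between the lowest group mean of the higher side and the highest group mean of the lower side. Points are single arrays coloured by part. In all 16 genes the 7 endosperm arrays (warm colours) and the 4 seed coat arrays (blue) do not overlap, which the naming rule required.

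Photosynthesis genes were higher in endosperm. Of 60 nuclear genes listed, 10 had a probe set that named them alone, and of these 6 were called higher, 0 lower, with a median log2 difference of 2.80 against -0.06 over all probe sets. On side means alone 10 of 10 passed, 8 were called under each of the other scalings, and 6 without the 3 arrays of high GAPDH ratio. PSAE-1, a stromal subunit of photosystem I, read 6792 and 7431 in micropylar, 13287 and 12492 in peripheral and 1938, 2105 and 693 in chalazal endosperm, against 84.0 and 60.1 in chalazal and 467 and 168 in general seed coat. Peripheral endosperm was highest, chalazal endosperm lowest of the endosperm parts, and no array overlapped with seed coat (at least 31.8-fold, log2 difference 4.83 ± 0.32, adjusted p 5.34e-12, 3 of 4 seed coat arrays above background). PSBW, a small subunit of photosystem II, read 10287 and 11319 in micropylar, 12567 and 16936 in peripheral and 4181, 3709.5 and 3549 in chalazal endosperm, against 468 and 593 in chalazal and 1194 and 693 in general seed coat and was 12.2-fold higher (adjusted p 1.76e-11). LHCB4.1, an antenna protein of photosystem II, read 6072 and 7314 in micropylar, 6667 and 8094 in peripheral and 2709.6, 1978 and 2927 in chalazal endosperm, against 964 and 700.5 in chalazal and 1047 and 464 in general seed coat and was 6.56-fold higher (adjusted p 3.42e-09). PSAE-1, PSBW and LHCB4.1 were in the strict set, as was PSB27, a photosystem II assembly factor from outside the list, with at least 11.4-fold higher signal.

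The order of parts differed between photosynthesis genes. Phosphoribulokinase, the PRK gene of the Calvin cycle, read 2865 and 4322 in micropylar, 17758 and 36003 in peripheral and 17815, 12543 and 6981 in chalazal endosperm, against 990.5 and 216 in chalazal and 1499 and 907 in general seed coat, with peripheral and chalazal endosperm above the micropylar part (log2 difference 3.71 ± 0.33, adjusted p 9.24e-10). ATPC1, the gamma subunit of the chloroplast ATP synthase, and PSBY, of photosystem II, were called too, with log2 differences of 2.63 ± 0.31 and 2.94 ± 0.27. SBPASE and RCA, which act in carbon fixation, passed on side means, yet their high values came from peripheral endosperm alone. SBPASE averaged 16205 ± 1062 there, 1762 ± 313 in micropylar and 706 ± 183 in chalazal endosperm, against 1892 ± 251 in general seed coat. Without the peripheral group the log2 differences of SBPASE and RCA were -0.31 and -0.02. RCA also missed the threshold without the arrays of high GAPDH ratio (adjusted p 0.0607) and without any of 7 single arrays, among them peripheral endosperm 1 (adjusted p 0.126) and general seed coat 1 (adjusted p 0.118). PSAN and PORB were called on side means with group means that were not apart.

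Transcripts of the plastid genome followed the same direction. This list was chosen after values had been seen. Of 69 measured plastid genes, 55 were called higher in endosperm and 0 lower, the median log2 difference was 1.47, and the range was 0.34 to 2.38. Counts were 43 after quantile normalization, 59 at a common 75th percentile and 46 without the 3 arrays of high GAPDH ratio, each with 0 lower. Strict calls fell on ndhD, of the NAD(P)H dehydrogenase complex, atpH and atpF, of the ATP synthase, and psbA, psbC and psbE, of photosystem II. The psbA gene, which encodes the D1 protein, read 43805 and 34104 in micropylar, 32895 and 51652 in peripheral and 37572, 38030.2 and 19245 in chalazal endosperm, against 9289.7 and 6314 in chalazal and 14266 and 14213 in general seed coat, a 3.48-fold difference (adjusted p 8.31e-08). Its endosperm parts lay close together, and chalazal seed coat was lowest. The atpH gene read 38610.3 and 27760.1 in micropylar, 29974 and 51539 in peripheral and 51791, 36272 and 27955 in chalazal endosperm, against 7035 and 4474 in chalazal and 14704 and 9845 in general seed coat, a 4.43-fold difference (adjusted p 6.24e-09). Among the 15 plastid ribosomal protein genes 11 were called, but rpl20 had a log2 difference of 0.61 ± 0.18, which became -0.03 after quantile normalization and lost its call without general seed coat 2 (adjusted p 0.0623) or without the arrays of high GAPDH ratio (adjusted p 0.0728). For rpl36 the difference was 0.03 after quantile normalization (limma adjusted p 0.912) and 0.38 without the arrays of high GAPDH ratio. The genes clpP and ycf3 did not pass, with differences of 0.34 ± 0.20 and 0.34 ± 0.21.

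Mitochondrial transcripts ran the other way. Of 16 measured genes of the mitochondrial genome, also a list chosen after values had been seen, 0 were called higher in endosperm and 11 lower, with a median log2 difference of -0.83. The count was 10 lower after quantile normalization, but 1 higher and 4 lower at a common 75th percentile. Relative to the median of all probe sets, the median of the list was -0.77 with the deposited scaling, -1.19 after quantile normalization and -0.77 at a common 75th percentile, a scaling that moves all probe sets nearly alike. The largest difference was that of matR, an intron maturase, with -1.65 ± 0.25. The gene nad9, of respiratory complex I, read 1384 and 1484 in micropylar, 1871 and 1976 in peripheral and 1457, 1654 and 878 in chalazal endosperm, against 5213 and 4054 in chalazal and 2299 and 3648 in general seed coat, a 2.39-fold difference toward seed coat (adjusted p 0.00032). The 7 probe sets of nad1 disagreed, with log2 differences from -1.56 to 0.33.

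**Figure D2:**
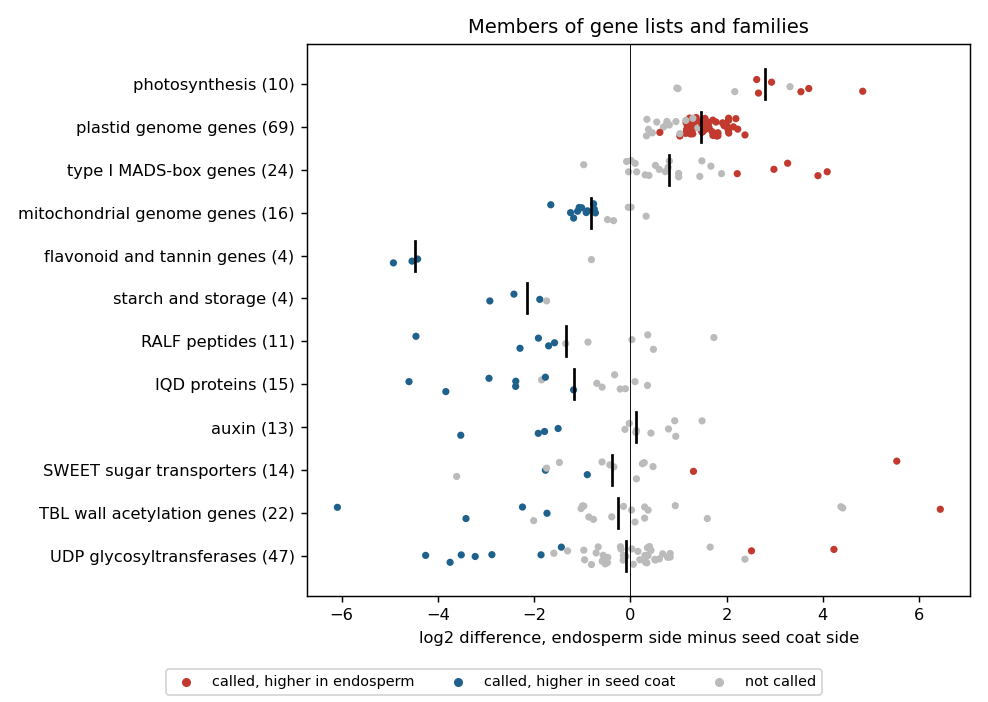
Log2 difference of the side means (horizontal axis, endosperm minus seed coat) for the measured members of 12 gene lists and families, with the number of members in parentheses. Each point is 1 gene, red or blue where it was called and grey where it was not, and the black bar is the median of the list. Photosynthesis and plastid genome genes lie to the right of 0 and flavonoid, starch, RALF and IQD genes mostly to the left.

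MADS-box transcription factors of type I, many of which act in the female gametophyte and endosperm, were called in 1 direction only. Of 59 listed, 24 were measured, 5 were called higher in endosperm and 0 higher in seed coat, with a median log2 difference of 0.80. The shares called over all probe sets were 6.51% and 14.6%. Under quantile and 75th percentile scaling 6 and 9 were higher, 0 lower. AGL62, which holds back endosperm cellularisation, read 705 and 1017 in micropylar, 2236 and 3647 in peripheral and 5713, 5215 and 3659.9 in chalazal endosperm, against 181 and 132 in chalazal and 162 and 53.9 in general seed coat. It was highest in chalazal endosperm, the sides did not overlap, and it was the one type I gene in the strict set (at least 18.3-fold higher, log2 difference 3.90 ± 0.34, adjusted p 6.5e-10, 3 of 4 seed coat arrays above background). AGL28 read 74.3 and 170.3 in micropylar, 1556 and 2698 in peripheral and 1913, 3617 and 2264 in chalazal endosperm, against 359 and 9.95 in chalazal and 213 and 14.8 in general seed coat, so that micropylar endosperm overlapped with seed coat (log2 difference 2.99 ± 0.52). AGL96 and AGL57 were highest in micropylar endosperm instead. AGL96 read 13460.0 and 13492 in micropylar, 822 and 919 in peripheral and 67.6, 89.1 and 77.7 in chalazal endosperm, against 16.3 and 20.4 in chalazal and 35.1 and 75.7 in general seed coat, and AGL57 averaged 20211 ± 12141 in micropylar, 54.0 ± 17.9 in peripheral and 161 in chalazal endosperm. Both were called, with log2 differences of 4.09 ± 0.30 and 3.27 ± 0.34. The chalazal endosperm arrays of AGL96 all lay under their background limits (123.81, 135.93 and 88.55), and chalazal endosperm 1 lay under general seed coat 2. Without the micropylar group the AGL57 difference was 0.88 and did not pass (adjusted p 0.0726).

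Among 11 measured of 45 endosperm regulators and imprinted genes, 2 were called higher, 0 lower, with a median log2 difference of 0.85. They were AGL62 and ADM (AT4G11940), a paternally expressed imprinted gene, which read 700.1 and 372 in micropylar, 169 and 371 in peripheral and 132, 145 and 203 in chalazal endosperm, against 25.8 and 9.54 in chalazal and 60.4 and 7.12 in general seed coat. All 4 seed coat arrays of ADM lay under background, and it was at least 3.36-fold higher (adjusted p 3.26e-05). Others were bound to 1 part. IKU2, a receptor kinase that sets seed size, averaged 849 ± 182 in micropylar endosperm and 5.74 ± 1.76 in chalazal endosperm. Its side mean call was lost without general seed coat 2 (adjusted p 0.0522) and the difference was -0.02 without the micropylar group. MPC, an imprinted gene for a poly(A)-binding protein-like product, averaged 5806 ± 354 in peripheral endosperm and at most 214 in the other 4 parts. DME, a DNA glycosylase of the central cell, was lower in endosperm on side means (log2 difference -1.23 ± 0.31). Its brightest probe set was not apart by group means, while its other 2 probe sets were.

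Of 5 measured cell cycle genes, AUR3, an Aurora kinase, was called higher in endosperm (log2 difference 2.69 ± 0.42, adjusted p 8.35e-06). AUR3 averaged 719 ± 406 in peripheral and 271 ± 160.3 in micropylar endosperm, with all 4 seed coat arrays under background. AUR1 and AUR2 passed on side means with group means not apart. PRL (MCM7), of the replication helicase, had a difference of -1.18 ± 0.34 on side means, lost without general seed coat 1 (adjusted p 0.0602). No more than 5 of the 56 genes listed were measured, so the group as a whole is not described.

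Of 14 SWEET sugar transporter genes, 2 were called higher in endosperm and 2 higher in seed coat, with a median log2 difference of -0.38. Over all probe sets the shares called were 6.51% and 14.6%, so these counts, and those of the TBL, UDP glycosyltransferase and serine carboxypeptidase-like families below, are near the background and say nothing particular of the families. The SWEET seed coat count was 1 under each other scaling. Beside SWEET8, SWEET9 was called higher in endosperm, but none of its 4 seed coat arrays lay above background and its call was lost without chalazal seed coat 1 or general seed coat 2 (adjusted p 0.0649 and 0.0634). SWEET7 was higher in seed coat (log2 difference -1.77 ± 0.42), as was SWEET13 (log2 difference -0.90 ± 0.30), which lost its call without any of 4 single arrays, with adjusted p-values from 0.0502 to 0.105. Of 22 measured TBL genes 1 was called higher in endosperm, TBL42, and 4 higher in seed coat, with 2 and 4 after quantile normalization and 1 and 2 at a common 75th percentile. TBL38, the strict seed coat member, read 555 and 57.9 in micropylar, 28.0 and 231 in peripheral and 2.72, 21.5 and 11.5 in chalazal endosperm, against 10038 and 10726 in chalazal and 5408 and 4626 in general seed coat. It was at least 47.8-fold higher in seed coat (log2 difference -6.09 ± 0.45, adjusted p 3.91e-11).

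On the seed coat side AT1G62480, bZIP44, AT5G14130 and AT4G21630 differed most by the same rule, and further genes of the strict set that carry a symbol are described below, chosen after their values were seen. The largest difference of all named genes was that of AT1G62480, which has a locus name alone, with 731 and 7.4 in micropylar, 171 and 169 in peripheral and 9.08, 337 and 174 in chalazal endosperm, against 36643 and 51116 in chalazal and 22399 and 10517 in general seed coat. The lowest seed coat array lay more than an order of magnitude above the highest endosperm array (log2 difference -7.24 ± 0.56, adjusted p 9.24e-11). The transcription factor gene bZIP44 read 5.44 and 113 in micropylar, 1557 and 71.3 in peripheral and 52.6, 12.2 and 76.1 in chalazal endosperm, against 19681 and 24678 in chalazal and 7166 and 8101 in general seed coat. Apart from peripheral endosperm 1 its endosperm arrays lay at or under 113, and it was at least 72.6-fold higher in seed coat (log2 difference -6.66 ± 0.53, adjusted p 1.19e-10, 1 of 7 endosperm arrays above background). AT4G21630 read 9.28 and 55.0 in micropylar, 26.1 and 78.7 in peripheral and 52.7, 9.67 and 8.9 in chalazal endosperm, against 4950.4 and 5121 in chalazal and 3970.2 and 5402 in general seed coat (log2 difference -6.29 ± 0.38). AT5G14130, AT3G49050, AT3G05220, AT5G22460, AT1G26930, AT4G01610, AT5G47150, AT3G54390 and AT3G18560 had log2 differences between -6.40 and -5.31.

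Flavonoid genes were higher in seed coat, though only 4 of 35 listed were measured. Of these 3 were called higher in seed coat and 0 higher in endosperm, with a median log2 difference of -4.48, and all 3 were in the strict set under the deposited scaling. The count was 3 under both other scalings and without the arrays of high GAPDH ratio. DFR, dihydroflavonol reductase, read 1766 and 1463 in micropylar, 1088 and 1368 in peripheral and 44.7, 298 and 564 in chalazal endosperm, against 17430.0 and 20263 in chalazal and 30964 and 31116 in general seed coat. General seed coat was highest, and the micropylar and peripheral endosperm arrays lay above the chalazal ones (at least 29.7-fold higher in seed coat, log2 difference -4.93 ± 0.35, adjusted p 2.23e-11). BAN, the anthocyanidin reductase of tannin synthesis, read 462 and 94.3 in micropylar, 167 and 134 in peripheral and 113, 124 and 59.6 in chalazal endosperm, against 2309.9 and 2083 in chalazal and 6369 and 9365 in general seed coat and was at least 25.1-fold higher in seed coat (adjusted p 1.19e-10, 3 of 7 endosperm arrays above background). CHIL, a chalcone isomerase-like protein that aids flavonoid synthesis, read 1429 and 468 in micropylar, 391 and 875 in peripheral and 112, 142 and 169.6 in chalazal endosperm, against 6583 and 7023 in chalazal and 12716 and 14302 in general seed coat and was at least 23.4-fold higher (adjusted p 2.05e-11).

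UDP glycosyltransferases, which attach sugars to flavonoids, hormones and other small molecules, had 2 of 47 called higher in endosperm and 7 higher in seed coat, near the shares over all probe sets (6.51% and 14.6%). The counts were 3 and 7 after quantile normalization and 5 and 6 at a common 75th percentile. UGT78D1, a flavonol rhamnosyltransferase, read 2152 and 232 in micropylar, 368 and 1274 in peripheral and 86.6, 834 and 1201 in chalazal endosperm, against 6734 and 3846 in chalazal and 33834 and 26598 in general seed coat. General seed coat far exceeded all other parts, and the arrays did not overlap (log2 difference -4.26 ± 0.50, adjusted p 1.12e-07). UGT84B1, which can glucosylate the auxin indole-3-acetic acid, was the strict endosperm member and read 4248 and 4809.7 in micropylar, 411 and 1045 in peripheral and 513, 538 and 855 in chalazal endosperm, against 89.5 and 51.0 in chalazal and 19.4 and 10.6 in general seed coat (log2 difference 4.23 ± 0.36, adjusted p 5.07e-10). IAGLU, named as an indole-3-acetate glucosyltransferase, was a strict seed coat gene and read 108 and 193 in micropylar, 149.9 and 544 in peripheral and 95.1, 45.8 and 404 in chalazal endosperm, against 2759 and 4658 in chalazal and 2915 and 2785 in general seed coat (log2 difference -3.94 ± 0.42, adjusted p 1.97e-08). HCT, which acts in lignin and phenylpropanoid synthesis, was 9.17-fold higher in seed coat (adjusted p 1.29e-08), with all 7 endosperm arrays above background.

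The receptor kinases FER and THE1, which act in cell wall sensing, were higher in seed coat and were chosen after their values were seen. FER (FERONIA), a receptor kinase for RALF peptides, read 223 and 408 in micropylar, 30.6 and 40.5 in peripheral and 8.39, 49.2 and 109 in chalazal endosperm, against 2572 and 3516 in chalazal and 5920.1 and 6047 in general seed coat. No endosperm array exceeded 408 and no seed coat array lay under 2572 (at least 32.2-fold higher, log2 difference -5.17 ± 0.36, adjusted p 1.76e-11). THE1 (THESEUS1), a related receptor kinase, read 103 and 74.3 in micropylar, 284 and 136 in peripheral and 115, 166 and 79.0 in chalazal endosperm, against 1368 and 2179.7 in chalazal and 3386 and 4085 in general seed coat (at least 16.8-fold higher, log2 difference -4.02 ± 0.32, adjusted p 1.36e-10). Both kinases had 3 of 7 endosperm arrays above background. Of 11 measured RALF peptide genes, a list chosen after values had been seen, 5 were called higher in seed coat and 0 higher in endosperm. The shares over all probe sets were 14.6% and 6.51%, and the median log2 difference of the RALF genes was -1.34. The count fell to 3 after quantile normalization and 2 at a common 75th percentile. RALFL18 passed in the other direction on side means alone (log2 difference 1.74 ± 0.50, adjusted p 0.00837). RALFL28 did not pass (0.48 ± 0.38) and averaged 28161 ± 873 in chalazal endosperm. The summed intensity of the 11 genes was 28267 to 29603 in chalazal endosperm, 862 to 2368 in the other endosperm parts and 3895 to 7171 in seed coat. RALFL22 was the strict member and read 24.9 and 63.3 in micropylar, 185 and 178 in peripheral and 7.65, 38.6 and 4.98 in chalazal endosperm, against 3104 and 1712 in chalazal and 1747 and 1480.2 in general seed coat (log2 difference -4.46 ± 0.40, adjusted p 8.69e-10). RALFL33 and RALFL32 were called with differences of -1.91 ± 0.41 and -2.29 ± 0.48. RALFL34 and RALFL24 were called with -1.70 ± 0.50 and -1.58 ± 0.49, but the first lost its call without chalazal seed coat 2 (adjusted p 0.0887) and the second without chalazal seed coat 1 (adjusted p 0.16) or general seed coat 2 (adjusted p 0.0631).

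Single genes of wall-related and other families on the seed coat side follow, chosen after their values were seen. EXLA1, an expansin-like protein, read 1685 and 232 in micropylar, 439 and 411 in peripheral and 1325, 428 and 502 in chalazal endosperm, against 14663 and 18658 in chalazal and 14617 and 15748 in general seed coat. The 4 seed coat arrays were nearly equal, the sides did not overlap, and the fold was 28.3 (log2 difference -4.74 ± 0.41, adjusted p 6.24e-10). EXGT-A3, a xyloglucan endotransglucosylase, read 426 and 201 in micropylar, 215 and 403 in peripheral and 131, 202 and 158 in chalazal endosperm, against 1879 and 1881 in chalazal and 11006 and 8511 in general seed coat and was 17.7-fold higher (adjusted p 3.83e-11). General seed coat was several times above chalazal seed coat for EXGT-A3. The subtilase gene SBT1.3 and the peroxidase gene PRXR1 showed the same order within the seed coat. SBT1.3 averaged 9906 ± 614 in the general and 3129 ± 192 in the chalazal part, and its sides differed by -4.86 ± 0.40. PRXR1 averaged 11811 ± 2192 and 3381 ± 287 in these parts, and its sides differed by -4.91 ± 0.30, both on the log2 scale. GUT1, which builds the xylan backbone, and CSLC6, of a family that makes the glucan of xyloglucan, had differences of -4.02 ± 0.39 and -3.71 ± 0.43 and were in the strict set.

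Counts over whole wall families were small. Over all probe sets 14.6% were called higher in seed coat and 6.51% higher in endosperm, and the family counts were not tested against those shares. Of the 9 measured wall synthesis and remodelling genes 2 were called higher in seed coat, EXPB3 and EXPA15, and 0 higher in endosperm. EXPA15 lost its call without general seed coat 2 (adjusted p 0.0575), and the count without the arrays of high GAPDH ratio was 1. Of 18 expansins and expansin-like genes 4 were called higher in seed coat and 0 higher in endosperm, which became 2 and 2 after quantile normalization, 2 and 1 at a common 75th percentile and 2 and 0 without those arrays. Of 15 GH9 endoglucanases 4 were higher in seed coat and 1 higher in endosperm, and of 9 xyloglucan endotransglucosylases named XTH or XTR 0 were called. Of 20 beta-glucosidases 4 were higher in seed coat under each scaling, with BGLU28 and BGLU40 in the strict set (log2 differences -4.69 ± 0.45 and -4.09 ± 0.46). Of 29 serine carboxypeptidase-like genes scpl21 and scpl47 were called higher in endosperm (15.2-fold and 11.2-fold) and 4 higher in seed coat, near the shares of 6.51% and 14.6% over all probe sets. The seed coat count was 1 after quantile normalization and 0 at a common 75th percentile.

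Regulators of hormone signalling on the seed coat side came from several pathways. EIN3, the transcription factor of the ethylene response, read 179.7 and 162 in micropylar, 168 and 128 in peripheral and 4.72, 114 and 124 in chalazal endosperm, against 2324 and 2169 in chalazal and 2043 and 1304 in general seed coat (log2 difference -3.70 ± 0.37, adjusted p 8.37e-09). MYC4, of the jasmonate response, read 10.5 and 6.32 in micropylar, 7.68 and 7.39 in peripheral and 3.4, 11.2 and 140.0 in chalazal endosperm, against 384 and 451 in chalazal and 775 and 689 in general seed coat (log2 difference -3.68 ± 0.46, adjusted p 3.17e-07). IAA31, an Aux/IAA protein, had a difference of -3.46 ± 0.42. These 3 genes were in the strict set, and their arrays did not overlap between sides. Of 13 measured auxin genes 4 were called higher in seed coat and 0 higher in endosperm, against 14.6% and 6.51% over all probe sets. The median log2 difference of the auxin genes was 0.12. The counts were 4 and 2 after quantile normalization and 3 and 3 at a common 75th percentile, so calls in 1 direction alone were not seen under those scalings. The 4 were YUC6, of auxin synthesis, IAA18, and GH3.3 and WES1, which conjugate auxin to amino acids. YUC6 read 67.2 and 7.86 in micropylar, 2.09 and 12.8 in peripheral and 43.4, 22.4 and 2.93 in chalazal endosperm, against 1289 and 1364 in chalazal and 204 and 211 in general seed coat, with chalazal above general seed coat and all 7 endosperm arrays under background.

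Among 5 measured cytokinin genes RR22, a response regulator, was called higher in seed coat and read 289.6 and 127 in micropylar, 69.0 and 43.1 in peripheral and 163, 184 and 163 in chalazal endosperm, against 19299 and 18331 in chalazal and 360.0 and 342 in general seed coat. The seed coat signal was that of the chalazal part, and the general seed coat arrays exceeded the highest endosperm array by little. RR22 was therefore outside the strict set although its log2 difference was -4.09 ± 0.32. The gibberellin receptor genes GID1A and GID1B were called in opposite directions, with differences of -2.56 ± 0.38 and 1.29 ± 0.40. GID1A overlapped between sides through peripheral endosperm, and GID1B, with all 4 seed coat arrays under background, lost its call without chalazal seed coat 2 (adjusted p 0.0835) or general seed coat 1 (adjusted p 0.0547).

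Other regulators in the strict seed coat set were SIM, LHW and BPEp. SIM, an inhibitor of cyclin-dependent kinases that promotes endoreduplication, read 10.3 and 125 in micropylar, 3.55 and 12.5 in peripheral and 149, 22.2 and 87.3 in chalazal endosperm, against 2037 and 1314 in chalazal and 2141 and 1681 in general seed coat (log2 difference -4.71 ± 0.42, adjusted p 1.16e-09). LHW, a bHLH factor of vascular development, was higher in chalazal than in general seed coat, with 2287 ± 80.2 and 653 ± 96.1 (log2 difference of sides -4.53 ± 0.35). BPEp, a bHLH factor that limits petal size, had a difference of -4.15 ± 0.43. Among 40 MADS-box genes, AGL16 was the one called higher in seed coat (-3.04 ± 0.41), and among 6 WRKY genes WRKY20 (-1.74 ± 0.32).

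Of 15 measured IQD genes, whose products bind calmodulin and in studied cases microtubules, 7 were called higher in seed coat and 0 higher in endosperm. The shares over all probe sets were 14.6% and 6.51%, and the median log2 difference of the IQD list was -1.18. This list was chosen after values had been seen. The count was 6 under each other scaling and without the arrays of high GAPDH ratio. IQD28 read 166 and 133 in micropylar, 72.0 and 243 in peripheral and 111, 31.8 and 119 in chalazal endosperm, against 3583 and 3910.4 in chalazal and 3686 and 3227 in general seed coat (at least 26.2-fold higher, adjusted p 1.42e-10), with nearly equal seed coat arrays. The IQD22 call was lost without any of 4 single arrays, with adjusted p-values from 0.0616 to 0.182. Genes of the cytoskeleton that follow were chosen after their values were seen. The LIM proteins WLIM1 and WLIM2b, which bundle actin, rose in seed coat, WLIM1 at least 13.0-fold and WLIM2b at least 15.5-fold. Of 10 measured genes of the actin-binding NET family 1 was called higher in endosperm and 2 higher in seed coat, with a median log2 difference of 0.08. These NET counts are near the shares of 6.51% and 14.6% over all probe sets. NET4B and NET1D had -4.19 ± 0.36 and -3.59 ± 0.40, while NET3A was called higher in endosperm (2.24 ± 0.43) with all arrays but not without those of high GAPDH ratio. SP1L3, related to the microtubule protein SPIRAL1, had -3.74 ± 0.31.

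Most of the few measured starch genes were called higher in seed coat, but not against every endosperm part. Of 52 starch and storage genes 4 were measured and 3 called higher in seed coat, 0 higher in endosperm, with 3 and 2 under quantile and 75th percentile scaling. DPE1 passed on side means with group means not apart. Its log2 difference was -0.53 without chalazal endosperm and -0.60 without general seed coat. The summed intensity of the 4 genes was 3656 and 4169 in peripheral endosperm, above the 3279 and 3030 in chalazal seed coat, and 6686 and 10470 in general seed coat. APL3 and APL4 encode large subunits of ADP-glucose pyrophosphorylase, the entry enzyme of starch synthesis. APL4 read 58.8 and 3.2 in micropylar, 40.1 and 1.08 in peripheral and 8.58, 5.2 and 29.2 in chalazal endosperm, against 292 and 321 in chalazal and 254 and 551 in general seed coat, and all 7 endosperm arrays lay under background (log2 difference -2.92 ± 0.42, adjusted p 2.39e-06). APL3 was highest in general seed coat (1361 ± 604) and had a difference of -2.42 ± 0.41. SBE2.2, a branching enzyme, read 1447 and 1534 in micropylar, 1491 and 1909 in peripheral and 68.5, 151 and 230.0 in chalazal endosperm, against 2091 and 1848 in chalazal and 3126 and 4875 in general seed coat, so that micropylar and peripheral endosperm came close to chalazal seed coat and chalazal endosperm stood lowest (log2 difference -1.88 ± 0.30). Without chalazal endosperm the SBE2.2 difference was -0.79 and its call was lost (adjusted p 0.0798).

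Single genes of general metabolism also stood in the strict seed coat set at high signal. SAMDC, S-adenosylmethionine decarboxylase of polyamine synthesis, read 2326 and 1374 in micropylar, 2583 and 2292 in peripheral and 2381, 3667 and 2826 in chalazal endosperm, against 12389 and 12280.0 in chalazal and 12644 and 14048 in general seed coat. All arrays lay well above background, and the fold was 5.5 (adjusted p 7.58e-10). MAB1, the beta subunit of mitochondrial pyruvate dehydrogenase, had a small difference for the strict set, 2.9-fold (log2 difference -1.52 ± 0.21, adjusted p 1.78e-06). QPT, of NAD synthesis, was at least 10.6-fold higher, and the autophagy gene ATG8B at least 10.7-fold higher. The histone H2B genes HTB2 and HTB4 were called higher in seed coat, by 3.52-fold and 2.27-fold, outside the strict set.

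The other lists and families gave few calls. Over all probe sets 6.51% were called higher in endosperm and 14.6% higher in seed coat, and the counts here were not tested against those shares. Of 4 measured seed coat development genes 0 were called. DELTA-VPE, a protease of the inner seed coat, averaged 16613 ± 914 in general and 223 ± 50.8 in chalazal seed coat, passed on side means, and had a log2 difference of 0.15 without the general part. The 1 measured cuticle gene did not pass, and no gene of the amino acid, peptide and mineral transport list was measured. Of 26 genes grouped by the symbol CYP 1 was called, CYP71B28, higher in seed coat (-2.01 ± 0.38). In this group 2 and 4 others were called higher in endosperm under quantile and 75th percentile scaling. The symbol covers cytochromes P450 but also CYP59 and CYP71, which are cyclophilins. Of 14 bZIP genes 3 were called higher in seed coat, bZIP44, bZIP43 and bZIP52, and 2 under each other scaling. The bZIP52 call was lost under both other scalings (adjusted p 0.165 and 0.15), with the replicate block (adjusted p 0.0679), without the arrays of high GAPDH ratio (adjusted p 0.156) and without any of 8 single arrays, with adjusted p-values from 0.0525 to 0.15. The bZIP43 call was lost without chalazal seed coat 1 (adjusted p 0.0558) or general seed coat 2 (adjusted p 0.0986). Of 5 bHLH genes named by number bHLH34 and bHLH115 were higher in seed coat. So were 1 of 8 cellulose synthase-like genes and 2 of 11 genes grouped as subtilases by symbol, a group that includes the Rab GTPase ARA6. Among these and the bZIP genes 0 were higher in endosperm with the deposited scaling or after quantile normalization. At a common 75th percentile 1 cellulose synthase-like gene, 1 gene of the subtilase group and 1 bZIP gene were. Of 14 glutathione transferases GSTF4 alone was called, higher in seed coat. Under quantile normalization 0 of the 14 were called, and at a common 75th percentile 4 were higher in endosperm and 0 higher in seed coat. The GSTF4 call was also lost without any of 5 single arrays, with adjusted p-values from 0.0568 to 0.0815. Of 8 glutamate receptor genes 1 was called in each direction with the deposited scaling, but GLR3.3, the seed coat gene, lost its call under both other scalings (adjusted p 0.106 and 0.116), without the arrays of high GAPDH ratio (adjusted p 0.0799) and without any of 5 single arrays, with adjusted p-values from 0.0611 to 0.121. At a common 75th percentile 4 of the 8 were higher in endosperm. Of 8 LCR genes LCR24 alone was called, and 2 were under each other scaling. Of 7 genes with PDF symbols and 9 U-box ligases 0 were called, against 2 and 1 higher in endosperm at a common 75th percentile. The PDF symbols cover plant defensins but also PDF1A and PDF1B, which are peptide deformylases.

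Over all probe sets the median range of the 3 endosperm group means was 1.18 on the log2 scale and that of the 2 seed coat group means 0.530, where 3 means span more than 2 by their number. In the strict endosperm set these medians were 1.54 and 0.557, and in the strict seed coat set 0.956 and 0.586. Of the 132 endosperm probe sets, micropylar endosperm was highest for 50, peripheral for 42 and chalazal for 40. Of the 507 seed coat probe sets, chalazal seed coat was highest for 250 and general seed coat for 257. These are descriptions without a test.

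**Figure D3:**
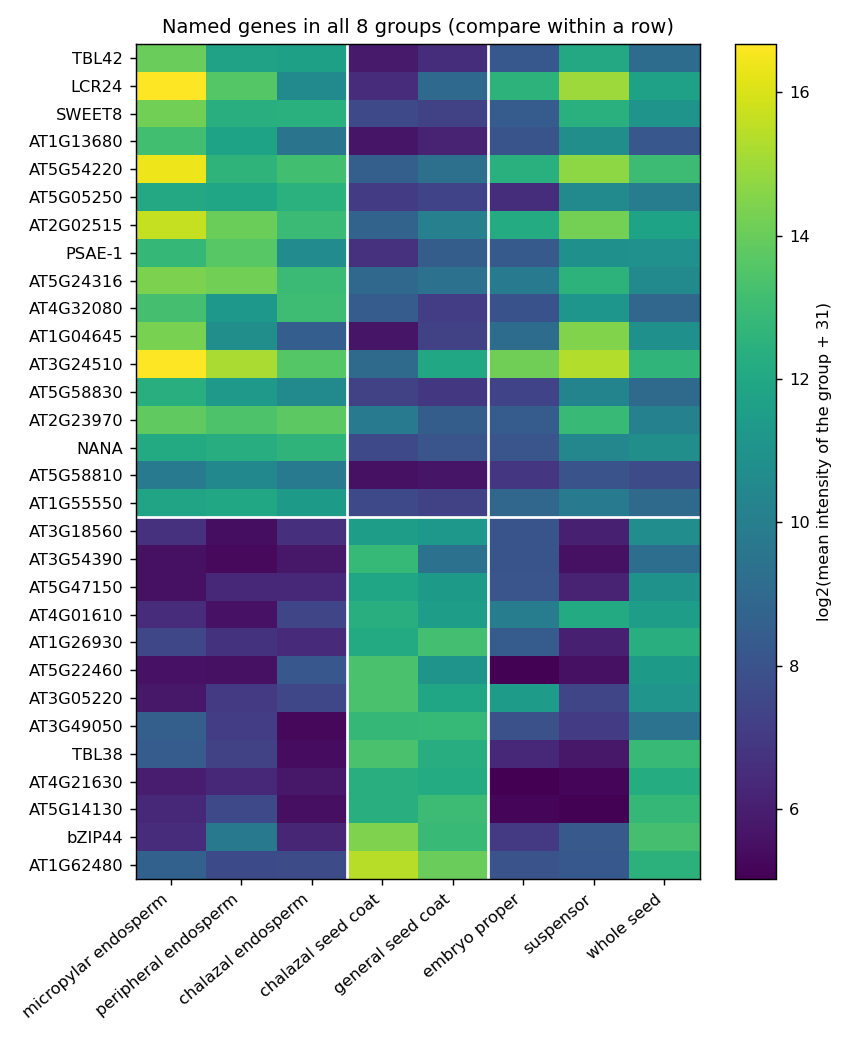
Group means of intensity, as log2 of the mean plus 31, for the 30 genes named by size of difference or margin (rows) in all 8 groups (columns), with the genes higher in endosperm above the horizontal line. Colours are to be compared along a row, not between rows. LCR24 and AT3G24510 fall from micropylar to chalazal endosperm, and suspensor lies near endosperm in many of the upper rows, while whole seed lies near seed coat in most of the lower rows.

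The arrays that the rule did not use placed these genes in the rest of the seed. Position was measured on the log2 scale, with 0 at the seed coat side and 1 at the endosperm side. For the 132 endosperm probe sets the median position was 0.149 for embryo proper, 0.618 for suspensor and 0.410 for whole seed. Suspensor was nearer endosperm for 90 of the 132 (68.2%), embryo proper for 23 (17.4%). Among all 1481 called endosperm probe sets these shares were 51.8% for suspensor and 38.9% for embryo proper. For the 507 seed coat probe sets the medians were 0.631, 0.699 and 0.0992, and whole seed was nearer seed coat for 483. Suspensor was nearer endosperm for 323 of these 507 (63.7%), a share close to that of the strict endosperm set, and embryo proper for 293 (57.8%). TBL42 averaged 4251 ± 134 in suspensor, 273 ± 267 in embryo proper and 534 ± 201 in whole seed. SWEET8 averaged 5369 ± 429.7, 313 ± 48.9 and 2075 ± 384 in the same order. DFR averaged 688 ± 79.4 in suspensor, 79.1 ± 22.4 in embryo proper and 10404 ± 315 in whole seed, and FER 473 ± 339, 423 ± 176 and 3990.2 ± 90.0. THE1 averaged 1243 ± 211 in embryo proper, above DFR and FER there. Embryo proper was nearer seed coat for 214 of the 507 seed coat probe sets.

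**Figure D4:**
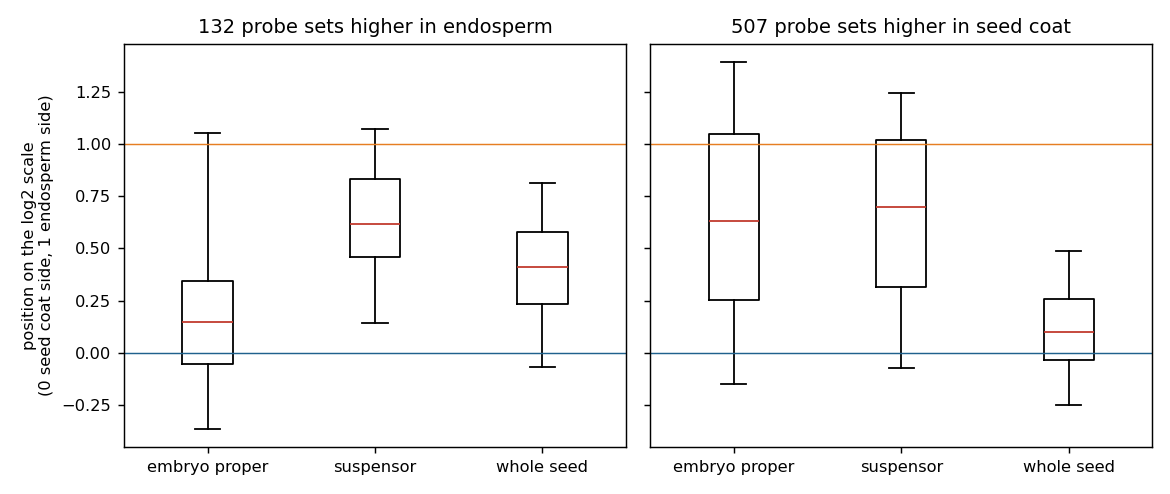
Position of embryo proper, suspensor and whole seed between the seed coat side (0, blue line) and the endosperm side (1, orange line) on the log2 scale, for the strict endosperm set (left) and the strict seed coat set (right). Boxes show the quartiles and median over probe sets and whiskers the 5th and 95th percentiles. Whole seed has its median at 0.0992 for the seed coat set and at 0.410 for the endosperm set.

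The labels were checked against marker genes. Of 20 endosperm markers 6 were measured, and their summed intensity ran from 2597 to 12504 over the endosperm arrays and from 345 to 817 over the seed coat arrays, where 0 of 6 were above background on every array and 2 on none. Of 19 seed coat markers INO, DFR and BAN were measured, with sums of 19793 to 41201 in seed coat. In endosperm the sums were 1607 and 2518 in the micropylar, 1287 and 1574 in the peripheral and 247 to 737 in the chalazal part. DFR alone gave 1088 to 1766 on the micropylar and peripheral arrays. INO, which marks the outer integument, did not pass (log2 difference -1.05 ± 0.44). The 6 measured of 32 embryo markers summed to between 243 and 2398 in endosperm and between 499 and 3124 in seed coat. Among them CR4 (ACR4), a receptor kinase of epidermal cells, was called higher in seed coat through general seed coat (1876 ± 1012), as was PHV (-2.18 ± 0.41), and BBM and YAB3 did not pass. The 2 measured of 28 vascular and phloem markers, SWEET11 and OPS, summed to at most 357 in endosperm and 647 in seed coat and did not pass. The part of neighbouring tissue in the results was not tested.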

How the data were processed

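RNA from 17 arrays in 8 groups was hybridised to ATH1, and groups came from the labels. The authors deposited 1 table of linear intensities, scaled per array. Per the submitters' processing notes, intensities came from GCOS, Affymetrix's scanner software. Its algorithm is not given in the sources used here. Amplification from fixed tissue can favour 3' ends.

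Of 22810 probe sets, 64 controls were left out. A linear model with a mean for each group was fitted to log2(intensity + 31) of the 17 arrays with limma 3.58.1 (R 4.3.3, 9 residual degrees of freedom, eBayes with intensity trend, two-sided, Benjamini-Hochberg over 22746 probe sets, threshold 0.05). The offset understates changes of dim genes. Log2 differences are given ± SE and group means ± SD. The strict call took the largest of 6 one-sided p-values, doubled and adjusted. Folds are ratios of geometric means averaged over groups, with arrays under the background limit raised to it and then written as "at least". The limit was chosen after values were seen. Array number bounds the precision.

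Of the probe sets, 13513 name 1 gene, 13436 of them with a current TAIR10.1 name, 503 name several and 8730 are unnamed here. Counts for a list therefore speak of the members that were measured and of no others. The brightest probe set stood for a gene. Genes named by rule were, per direction, the 12 largest differences and 8 largest margins among called genes of non-overlapping arrays whose brighter side lay above the median. Members of the lists and families were added. Members and lists were chosen with earlier results of these data known. The fit was tested on simulated data. Promoter sequences were not analysed here. Alternatives were other offsets, scalings, filters, array weights, a replicate block, fewer arrays and left-out groups or arrays.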

Additional observations from a re-analysis of the deposited data

How the results depend on the processing

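The 30 genes named by size or margin kept direction and call under the 27 alternatives that gave a value. Counts below are given as higher in endosperm and higher in seed coat. With no offset the strict calls were 84 and 174. Quantile normalization gave 2222 called higher in endosperm. A common 75th percentile gave 4830 on side means, 3284 called and 216 strict, all higher in endosperm. The 11 arrays in 2 groups gave 712 and 2204 on side means and 689 and 2169 called, and no value for the strict call, since the parts are pooled there. Of the 337 genes followed across the alternatives, 82 kept their direction in that fit but missed the threshold they had passed on side means. Among them were AGL96, SBE2.2 and the plastid genes ndhF and ndhK (limma adjusted p 0.077, 0.0846, 0.0633 and 0.0734). Strict calls were 245 and 848 without micropylar endosperm, 288 and 812 without peripheral endosperm, 373 higher in endosperm without chalazal endosperm, and, with a seed coat part left out, 274 and 1306 (chalazal) and 336 and 1229 (general), since fewer pairs are then required. Leaving out 1 array at a time gave 2067 to 2752 and 3777 to 4635 on side means, 1222 to 1536 and 2924 to 3345 called, and 64 to 130 and 291 to 527 strict. These log2 differences turned sign: AGL33 -1.76, AGL91 -0.13 and RALFL28 -2.27 without chalazal endosperm, RALFL28 -1.40, DELTA-VPE 0.15, IQD16 0.15 and SWEET1 0.50 without general seed coat, SWEET4 1.12 without chalazal seed coat, IKU2 -0.024 without micropylar endosperm, RCA -0.016 and SBPASE -0.31 without peripheral endosperm, and rpl20 -0.031 after quantile normalization. Apart from the leave-out and pooled fits, whose construction lowers or raises the number of conditions or arrays, the cause was not tested. Replicate numbers were not used as a pairing in the main fit. Deviations of same-numbered arrays correlated between -0.093 and 0.026 over 10 pairs of groups, which cannot show whether captures shared plants. With the replicate block the calls were 1490 and 3333, 2676 and 4596 on side means, and 123 and 493 strict. The fit without the arrays of GAPDH ratio above 15 was added after seeing the data. Dim signal limits the folds, which are lower bounds for all 13 named seed coat genes and for 8 of the 17 named endosperm genes.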
